A study of Drosophila melanogaster with 10 samples.

Results

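The transcripts described here are those whose signal was lower after ionizing radiation in every wild-type set of Drosophila melanogaster embryos. They were chosen by their measured signals. A probe set, the array's group of probes for 1 transcript, was taken where its mean signal over the 10 arrays was above 53.4. In addition, its log2 change, irradiated over control, had to be -0.38 or lower in each of 3 wild-type sets, where -0.38 is a 1.3-fold lower signal. Changes are given on the scale log2(signal + 14.5) throughout, which understates the change of dim probe sets. Of 13966 probe sets, 8374 passed the signal filter and 104 met the whole rule, with kni and vvl, which met it as well, and cad and Doc1, which did not, left out. The 104 probe sets comprise 92 with 1 gene symbol, for 91 genes, 3 with several symbols and 9 with none.

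Embryos were gathered for 2.5 h after laying, aged for 2.5 h, given 40 Gy of gamma rays or a mock treatment, and harvested 1.5 h later, at 4 to 6.5 h of age. Each set was 1 control and 1 irradiated collection of about 1 g of pooled whole embryos, each hybridized to 1 single-colour Affymetrix DrosGenome1 array. The wild-type embryos were of the strain yw (1 set, here yw) or w1118 (2 sets, here w1118 set 1 and set 2). The mutant embryos were of the strain Dmp53NS (2 sets), named for a mutation of the fly p53 gene whose nature is not given in the sources used here, nor is the mutant's genetic background. Differences between strains therefore cannot be told apart from differences due to p53. No treatment was shared by all groups beyond the handling above.

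At this age the fly embryo has finished gastrulation and is in or near germ band extension, when the segments, the neuroblasts, the tracheal placodes and the mesoderm are laid out by zygotic transcription while maternal RNA is being cleared. Ionizing radiation breaks DNA and stops the cell cycle, and the p53 transcription factor is best known in this tissue for switching genes on, among them the cell death genes. In whole embryos fewer cells of a type and less RNA per cell cannot be told apart, so a lower signal may be either.

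The precision is limited by the number of arrays, 3 against 3 in the wild type and 2 against 2 in the mutant. The sets were run on 3 hybridization days, with yw alone on the first and 1 w1118 and 1 mutant set on each of the others. All arrays had the same trimmed mean, 250.04. The ratio of 3′ to 5′ signal of the eIF-4a control, which rises as RNA degrades, was 12.2 on the irradiated array of w1118 set 2 and 1.56 to 5.92 on the other arrays. Of the lists of cell type and stage markers, 15 lists with 187 measured genes, 5 had a median change below 0 in all 3 wild-type sets and 2 had one below 0 in both mutant sets.

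None of the 104 passed a test as lower in the wild type. Limma called 0 of 8379 probe sets as lower in irradiated wild-type embryos (0.0%), while 326 were lower at an unadjusted p under 0.05, 70 of them members. Since the rule used that same contrast, nothing is read from these counts. A fall of 0.38 log2 or more was seen in 25.0% of all probe sets above the filter in yw, in 14.3% in w1118 set 1 and in 23.3% in w1118 set 2. For comparison, 179 probe sets were higher by 0.38 log2 or more in all 3 sets. The median change of the members was -0.80 log2 in yw, -0.55 in w1118 set 1 and -0.75 in w1118 set 2, and that of all probe sets was within 0.02 of 0 in each. The deepest of the 3 changes lay in yw for 50 members, in w1118 set 2 for 42 and in w1118 set 1 for 12. The 3 irradiated wild-type arrays all lay below the 3 controls for 28 members (26.9%) and for 2.54% of all probe sets, from which nothing is read either, since the rule chose members on these arrays. For the other members the difference between sets was as large as that between treatments, so that the groups overlapped although each pair went down.

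**Figure D1:**
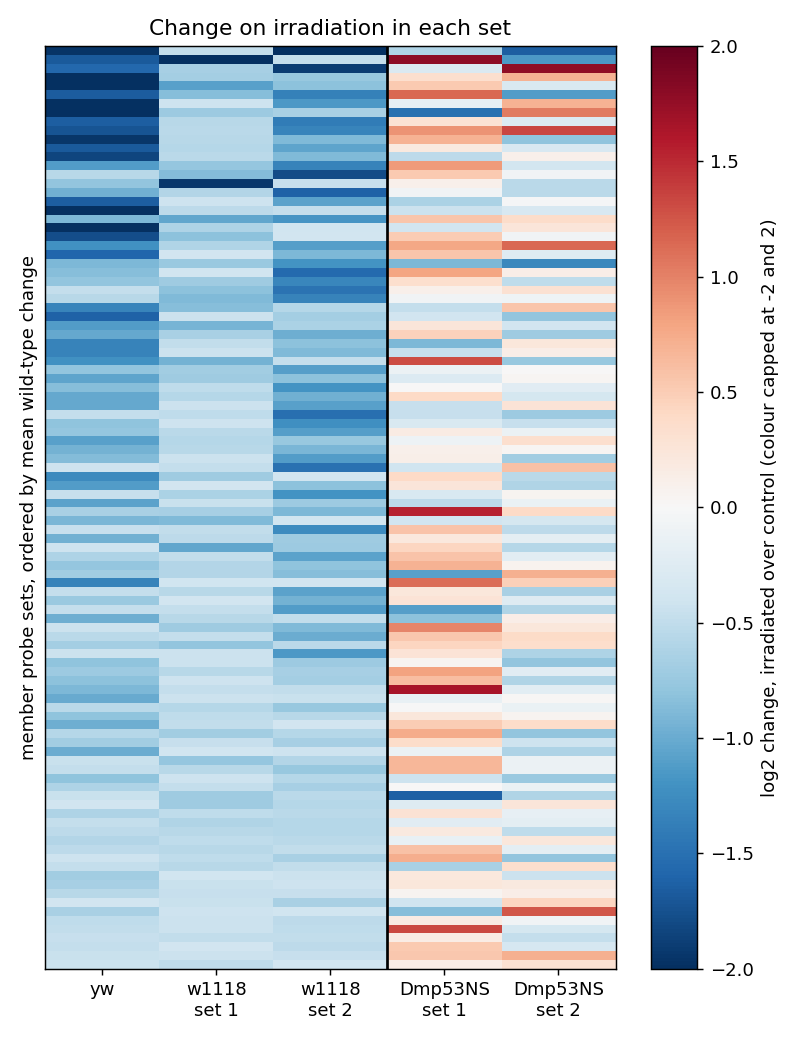
Log2 change on irradiation of the 104 members (rows, ordered by mean wild-type change) in the 5 sets (columns), blue for lower and red for higher. The 3 wild-type columns are blue by the choice of members, while the 2 Dmp53NS columns hold both colours in every part of the order.

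The threshold cut through a dense range of values. Just inside it lay Hinfp (largest wild-type change -0.38 log2), a zinc finger protein related to the human regulator of histone H4 genes, l(1)G0320 (-0.38) and phol (-0.38). Just outside it lay Sry-beta (-0.377), fd96Cb (-0.377) and CG13085 (-0.376). Choosing on 2 sets and reading the third describes how far the sets went together. The 104 past the threshold are the members themselves in each case, so these shares are no test of them. Of 283 probe sets past the threshold in both w1118 sets, 104 (36.7%) were past it in yw, against 25.0% of all. Of 617 chosen on yw and w1118 set 2, 104 (16.9%) were past it in w1118 set 1, against 14.3%. Of 371 chosen on yw and w1118 set 1, 104 (28.0%) were past it in w1118 set 2, against 23.3%. The median change in the set that was not used was -0.21 log2 in yw and -0.08 in each w1118 set.

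Several members are known from the germ band stages. The gene meso18E (145390_at), named for its expression in the embryonic mesoderm, had the lowest mean change of all members, -1.70 log2. Its signal was 241 in the yw control and 51.0 after irradiation, 217 and 152 in w1118 set 1, and 152 and 11.8 in w1118 set 2. In Dmp53NS embryos it was 176 and 111 in set 1, and 85.5 and 17.5 in set 2. The irradiated array was thus the lower one in all 5 sets, and the wild-type groups overlapped at 152. The mutant change was -1.12 log2 (95% interval -2.16 to -0.09, limma adjusted p = 1.00), which did not pass.

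Ribbon, rib (142609_at), encodes a BTB domain transcription factor needed for the shaping of trachea and salivary gland. Its control and irradiated signals were 694 and 335 in yw, 1418 and 950 in w1118 set 1, and 497 and 249 in w1118 set 2. In the mutant they were 741 and 981 in set 1 and 351 and 272 in set 2, so that the mutant sets went opposite ways. The change was -0.85 log2 in the wild type and 0.02 in the mutant (95% interval -0.58 to 0.63).

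Neuralized, neur (151717_s_at), is a ubiquitin ligase that lets Delta signal to Notch when neural precursors are singled out. It read 597 and 304 in yw, 1293 and 877 in w1118 set 1, and 229 and 115 in w1118 set 2. Its mutant signals were 741 and 792 in set 1, and 187 and 193 in set 2. Each wild-type pair went down and both mutant pairs were nearly level, at 0.09 and 0.04 log2, while the sets themselves differed far more than the treatments did. The mutant change was 0.07 log2 (95% interval -0.55 to 0.68).

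Naked cuticle, nkd (149027_at), an antagonist of Wingless signalling expressed in segmental stripes, read 143 and 95.2 in yw, 782 and 530 in w1118 set 1, and 160 and 103 in w1118 set 2. In the mutant it read 504 and 580 in set 1 and 158 and 107 in set 2. Its wild-type changes were close to each other, -0.52, -0.55 and -0.57 log2, and its mutant changes were 0.20 and -0.50. Both the wild-type and the mutant set of the second day had far higher signals than the other sets, irradiated or not. The zinc finger gene bowl, of the odd-skipped family, had changes of -0.69, -0.40 and -0.44 log2 in the wild type and 0.22 and -0.43 in the mutant. For pon, whose protein carries Numb to one daughter of a dividing neuroblast, they were -0.86, -0.40 and -1.56, and 0.78 and 0.13 in the mutant. Over these 6 germ band genes, grouped by hand, the median change was -0.83 log2 in the wild type, by choice, and -0.04 in the mutant, where 1 was lower and 2 were higher in both sets.

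**Figure D2:**
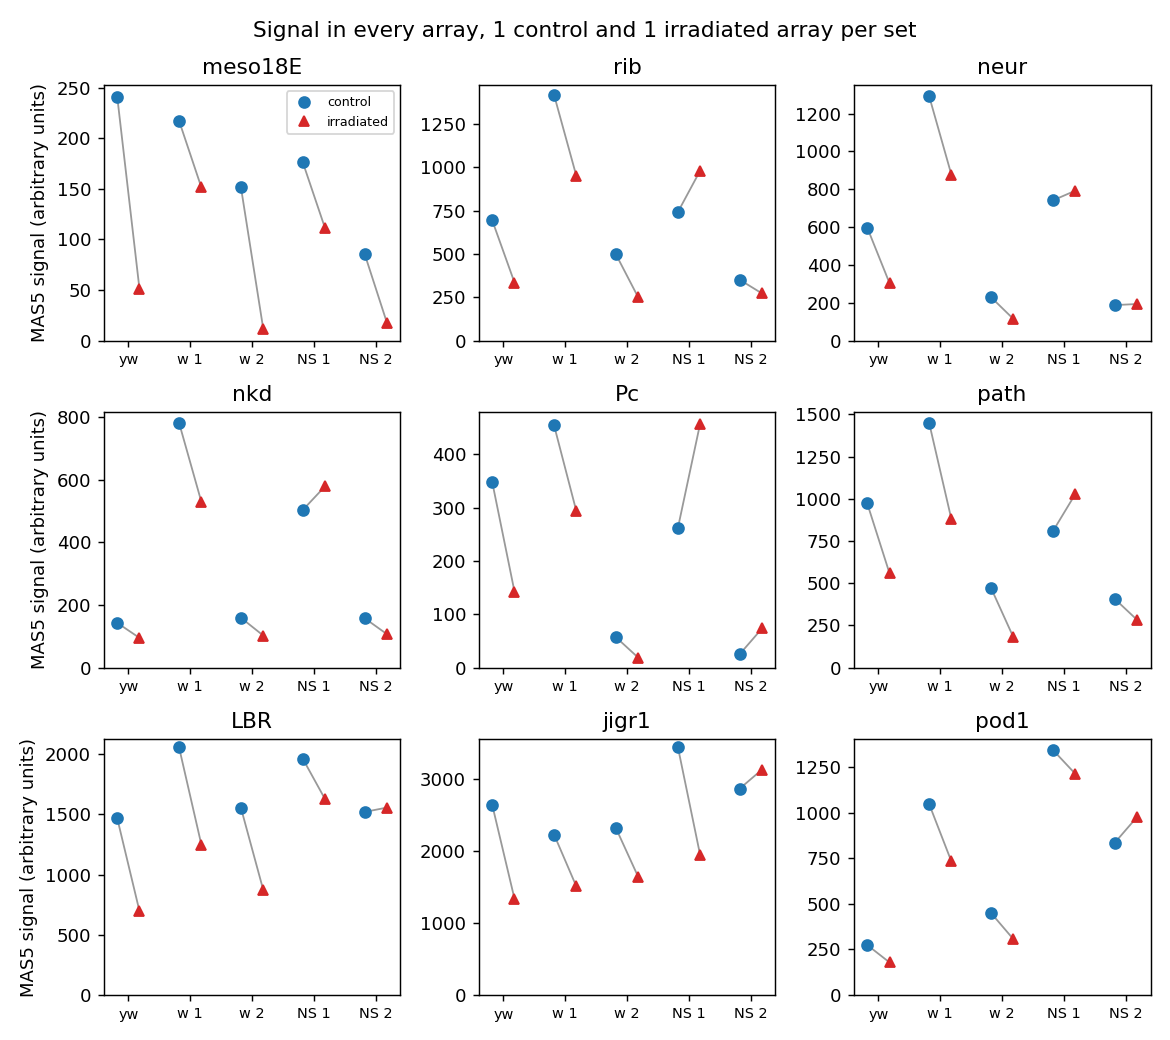
Signal on each array (vertical axes, arbitrary MAS5 units, starting at 0) for 9 members picked to illustrate the groups, control as circles and irradiated as triangles, joined within a set. The axis names yw, w1118 sets 1 and 2 (w 1, w 2) and Dmp53NS sets 1 and 2 (NS 1, NS 2); meso18E goes down in all 5 sets, Pc goes up in both mutant sets, and for neur and nkd the sets differ more than the treatments.

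Genes of transcription and chromatin were 8 members, with wild-type changes of -1.38 to -0.49 log2. Polycomb, Pc (143294_at), is the subunit of Polycomb repressive complex 1 that reads methylated histone H3. It read 348 and 143 in yw, 454 and 293 in w1118 set 1, and 57.1 and 18.8 in w1118 set 2. Its mutant signals were 261 and 457 in set 1 and 25.4 and 73.5 in set 2, higher after irradiation in both. The mutant change was 0.96 log2 (95% interval 0.17 to 1.75), and limma's adjusted p over all probe sets was 1.00. The gene phol (154557_at), which encodes a DNA-binding Polycomb group protein close to Pleiohomeotic, read 184 and 51.3, 222 and 167, and 329 and 171 in the 3 wild-type sets. All 3 irradiated arrays of phol lay below the controls, and its mutant changes were 0.56 and -0.26 log2.

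RAF2 (148892_at), a RING-associated factor, read 235 and 69.8 in yw, 368 and 227 in w1118 set 1, and 111 and 19.1 in w1118 set 2. The mutant signals were 597 and 485 in set 1, and 21.9 and 109 in set 2. The mutant sets of RAF2 went opposite ways, and its signal was lower in the second than in the first set of w1118 and of the mutant. For jigr1 (154645_at), a MADF domain protein, the signals were 2637 and 1334 in yw, 2224 and 1505 in w1118 set 1, and 2313 and 1637 in w1118 set 2. The controls and the irradiated arrays of jigr1 did not overlap, with means of 2391 ± 217 and 1492 ± 152 (SD, n = 3 each). In mutant set 1 jigr1 was also lower, 3442 and 1943, but in set 2 it was 2862 and 3127. Hinfp (144078_at) read 546 and 416, 710 and 518, and 414 and 258 in the wild type, and 999 and 752 and 428 and 579 in the mutant. The remaining genes, Hinfp and atms, a subunit of the Paf1 complex that travels with RNA polymerase II, had mutant changes between -0.40 and 0.42 log2 in either set. None of the 8 was lower in both mutant sets and 1, Pc, was higher in both.

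Members of RNA binding, splicing, translation and RNA polymerase III numbered 6. The La-related protein gene larp (150772_at) read 357 and 49.2 in yw, 228 and 137 in w1118 set 1, and 96.0 and 50.7 in w1118 set 2. Its mutant signals were 175 and 224 in set 1 and 44.5 and 81.3 in set 2. The largest part of its wild-type change was in yw, at -2.54 log2 against -0.68 and -0.76. A brighter probe set of larp that is not a member, 153228_at (mean signal 363), gave 0.03, 0.29 and -0.15 in these sets. The nuclear arginine-rich protein gene ytr (142235_at) read 1502 and 859, 1795 and 1102, and 804 and 365 in the wild type. In the mutant ytr was close to level, 1440 and 1324 in set 1 and 646 and 653 in set 2 (change -0.05 log2, 95% interval -0.59 to 0.48). The KH domain gene qkr54B (143968_at) read 129 and 42.5, 189 and 98.7, and 139 and 88.5 in the wild type, without overlap of the groups. In the mutant it read 478 and 339 in set 1 and 326 and 484 in set 2, above every wild-type array. Polr3A (145152_at), the largest subunit of RNA polymerase III, read 52.2 and 11.9, 143 and 97.2, and 180 and 95.8 in the wild type, and 384 and 199 and 314 and 370 in the mutant. Again every mutant array lay above every wild-type array. Polr3A, SRPK, a kinase of splicing factors, and clu, which acts on RNA and mitochondria, had mean mutant changes of -0.34, -0.12 and 0.01 log2. Of the 6 members none was lower and 1, larp, was higher in both mutant sets.

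Signalling members other than neur and nkd were rdx, rictor, fig, pkaap and pon, which is given above. For rdx, the BTB adaptor that Hedgehog signalling induces and that degrades its effector Ci, the wild-type changes were -0.92, -0.89 and -0.40 log2, and the mutant changes -0.378 and -0.36. For rictor (145362_at), of the TOR complex 2, the signals were 128 and 87.8, 442 and 305, and 292 and 93.0 in the wild type. Its mutant signals were 277 and 197 in set 1 and 170 and 97.2 in set 2, lower in both (-0.46 and -0.72 log2). The phosphatase gene fig (150843_at) read 148 and 34.4, 82.9 and 52.7, and 52.1 and 12.2 in the wild type, against 24.5 and 57.9 and 15.4 and 61.3 in the mutant. That is the highest mean mutant change among the members, 1.12 log2, with a 95% interval of 0.002 to 2.23 and a limma adjusted p of 1.00. For pkaap (144226_at), an anchor of protein kinase A, the signals were 100.6 and 15.5, 142 and 91.7, and 78.5 and 36.1 in the wild type. Its mutant changes were 0.70 and -0.80 log2, in opposite directions.

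Genes of neurons and the cell surface formed 14 members, and most of them are best known from later stages. They include side and side-III, of the immunoglobulin family that guides motor axons, the neuroligin genes Nlg1 and Nlg4, the immunoglobulin gene dpr4, the netrin receptor gene unc-5, and Burs, a subunit of the hormone bursicon, which hardens the adult cuticle. For side (151097_r_at) the signals were 123 and 28.7 in yw, 93.1 and 45.0 in w1118 set 1, and 64.5 and 16.6 in w1118 set 2. In the mutant this probe set read 60.5 and 152 in set 1 and 97.8 and 37.2 in set 2. A second member probe set of side, 150728_at, read 304 and 201, 124 and 86.3, and 142 and 99.4 in the wild type, and 86.8 and 90.7 and 75.7 and 84.1 in the mutant. The wild-type changes of these member probe sets of 1 gene were thus -1.29 and -0.49 log2 in the mean. Another probe set of side above the signal filter, 150730_at, is not a member. It changed by 1.15 log2 in yw, -0.44 in w1118 set 1 and 1.44 in w1118 set 2.

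Burs (150324_at) read 279 and 47.2, 91.1 and 49.0, and 143 and 85.5 in the wild type, with no overlap of the groups. Its mutant changes were -1.50 and 1.03 log2, far apart. The otopetrin proton channel gene OtopLa (151383_at) read 206 and 103, 61.1 and 30.8, and 40.0 and 9.30 in the wild type. It was also lower in both mutant sets, 52.3 and 21.4 in set 1 and 59.5 and 15.8 in set 2 (change -1.09 log2, 95% interval -2.18 to -0.01, limma adjusted p = 1.00). The changes of unc-5 were -0.82, -0.42 and -0.69 log2 in the wild type and 0.62 and -0.60 in the mutant. Those of Nlg1 were -0.55, -0.89 and -1.34, against -0.07 and -0.09 in the mutant. Those of Nlg4 were -0.45, -0.48 and -0.49, against 0.15 and -0.48 in the mutant. The tweety family gene CG3638 (144166_at) read 163 and 22.3, 283 and 208, and 42.0 and 11.0 in the wild type, and its mutant changes were -0.17 and 0.70. The rest were CRMP, a cytoskeletal regulator of axons, spab, tinc and NimC2, a Nimrod family receptor of blood cells. Over the 14 members the median mutant change was 0.08 log2 in set 1 and -0.27 in set 2, with 3 lower and 1 higher in both.

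The cuticle gene Lcp65Aa (143939_at) read 728 and 447, 261 and 145, and 184 and 123 in the wild type. In the mutant it was higher in both sets, 170 and 232 in set 1 and 241 and 310 in set 2. The gene yellow-e3 (149840_at) read 1452 and 1034, 698 and 472, and 1025 and 482 in the wild type, and 405 and 474 and 583 and 368 in the mutant. Cpr30B, also a cuticle protein gene, had mutant changes of -0.11 and -0.62 log2, and yellow-e3, of the yellow family, 0.22 and -0.64. Genes best known from the late embryo or later had 10 probe sets, side counted with both. Their median change was -0.79 log2 in the wild type and -0.12 in the mutant. In both mutant sets 3 of the 10 were lower and 2 were higher. Stages were assigned by hand, and 88 of the 104 members were given none.

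Members of metabolism, glycosylation and transport were the most numerous named group, with 15. The amino acid transporter gene path (148469_at) read 973 and 559 in yw, 1450 and 879 in w1118 set 1, and 472 and 182 in w1118 set 2. In the mutant it read 808 and 1026 in set 1 and 408 and 284 in set 2 (change -0.08 log2, 95% interval -0.69 to 0.53). Mipp1 (153260_at), an inositol polyphosphate phosphatase, varied little between wild-type sets, with 948 and 647, 925 and 621, and 936 and 549. Its controls were 936 ± 11.4 and its irradiated arrays 605 ± 50.8 (SD, n = 3 each), with no overlap. In the mutant it read 550 and 548 in set 1, and 478 and 432 in set 2, so that its highest mutant array, 550, was about level with its lowest irradiated wild-type array, 549. Its mutant change was -0.07 log2 (95% interval -0.63 to 0.49).

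The deacetylase gene Sirt2 (150255_at) read 171 and 119, 162 and 85.2, and 177 and 53.9 in the wild type, again with no overlap. In the mutant its signal was 38.9 and 42.9 in set 1, and 24.8 and 34.3 in set 2, below every wild-type array. Nagk (152123_at), N-acetylglucosamine kinase, read 774 and 584, 474 and 282, and 600 and 400 in the wild type and 246 and 204 and 299 and 357 in the mutant. The remaining members of the group were Eno (the glycolytic enolase), Coprox (haem synthesis), Mal-A5 (a maltase), Ppat-Dpck (coenzyme A synthesis), Mgat4a and Chpf (sugar transferases), schlank (ceramide synthase), oys (a lipid acyltransferase), qless (coenzyme Q synthesis), PGAP5 (GPI anchor remodelling) and svr (a carboxypeptidase). Their mean wild-type changes lay between -1.05 and -0.51 log2, and the median mutant change of all 15 was -0.07, with 4 lower and 4 higher in both sets.

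The 7 members of cytoskeleton and trafficking were pod1, jvl, Tbcd, mst, Rab39, TBC1D16 and senju. For pod1 (151665_at), which crosslinks actin and microtubules, the signals were 274 and 178 in yw, 1048 and 733 in w1118 set 1, and 450 and 307 in w1118 set 2. In the mutant they were 1345 and 1215 in set 1 and 835 and 977 in set 2. Its wild-type changes were alike, -0.58, -0.51 and -0.53 log2, although its level differed between sets by more than its change. The gene mst (143916_at), misato, a tubulin-related protein needed for spindles, read 37.0 and 18.3, 162 and 97.2, and 46.0 and 17.8 in the wild type. It was higher after irradiation in both mutant sets, 60.2 and 203 in set 1 and 47.6 and 67.5 in set 2. Tbcd, a tubulin folding cofactor, was lower in both, by changes of -0.41 and -0.75 log2.

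Of the members outside these groups, LBR (154846_at), the lamin B receptor of the inner nuclear membrane, read 1469 and 696 in yw, 2056 and 1249 in w1118 set 1, and 1554 and 873 in w1118 set 2. Its controls, 1693 ± 317, and its irradiated arrays, 940 ± 282 (SD, n = 3 each), did not overlap. In the mutant LBR read 1962 and 1626 in set 1 and 1520 and 1556 in set 2, all above every irradiated wild-type array (change -0.12 log2, 95% interval -0.63 to 0.39). The ataxin-1 homologue Atx-1 (144619_at) read 222 and 42.9, 203 and 88.1, and 111 and 56.8 in the wild type, without overlap, and its mutant changes were 0.52 and -0.31 log2. Samuel (146219_at) read 167 and 115, 28.9 and 16.8, and 59.9 and 19.7 in the wild type, and it was lower in both mutant sets, with changes of -1.10 and -0.60 log2. For l(1)G0320 (154368_at) the signals were 1706 and 1258, 1655 and 1162, and 657 and 501 in the wild type, and 928 and 1025 and 411 and 511 in the mutant. The others with a name were Usp15-31, a ubiquitin protease, and hbt.

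Of the 26 member probe sets of genes known by a CG number, CG3638 is given above. CG14075 (149025_at) had the second lowest mean change, -1.64 log2, with 279 and 77.5, 317 and 34.2, and 49.3 and 31.2 in the wild type, and its mutant changes were 1.79 and -1.14 log2. CG1910 (155107_at) was lower in all 3 wild-type pairs with overlapping groups, at 2340 and 1335, 4944 and 3669, and 3317 and 2000 in the wild type and 2897 and 3025 and 1891 and 1093 in the mutant. CG2145 (152332_at) read 825 and 373, 951 and 723, and 1014 and 567 in the wild type, with no overlap of the groups, and its mutant changes were 0.24 and -0.60. CG3906 (152167_at) read 102 and 71.1, 97.0 and 53.6, and 55.2 and 33.6 in the wild type. It was lower in both mutant sets, 68.8 and 12.4 in set 1 and 120 and 74.1 in set 2 (change -1.12 log2, 95% interval -2.13 to -0.11, limma adjusted p = 1.00). CG32447 (149201_at) read 144 and 48.3, 89.1 and 63.9, and 20.1 and 12 in the wild type and was higher in both mutant sets, 35.7 and 94.7 and 43.8 and 66.6. CG11095 (141421_at) went the same way, with 293 and 197, 148 and 102, and 163 and 74.6 in the wild type, and 60.6 and 94.6 and 40.7 and 57.7 in the mutant. CG8892 (142054_at) read 386 and 283, 55.6 and 28.2, and 99.4 and 47.2 in the wild type, and 41.8 and 95.9 and 64.6 and 78.5 in the mutant. All 3 of these probe sets were thus lower in every wild-type pair and higher in both mutant pairs. A brighter probe set of CG8892, 142852_at (mean signal 468), was not. It changed by -0.47, 0.14 and -0.75 log2 in the wild type, and 0.69 and -0.08 in the mutant. CG9121 (142506_at) read 478 and 338, 310 and 207, and 238 and 135 in the wild type, with mutant changes of 0.66 and -0.12 log2. CG4408 (154956_at) read 340 and 182, 853 and 596, and 1024 and 439, with mutant changes of 0.01 and -0.22. The 37 CG-numbered or unnamed members had wild-type changes of -1.64 to -0.44 log2 and a median mutant change of 0.02, with 4 lower and 5 higher in both sets.

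The changes from control to irradiated Dmp53NS embryos took no part in the fold rule, which read no difference between mutant arrays. They are independent of the choice of members apart from the signal filter, which read all 10 arrays. The limma intervals and p-values also share their estimate of spread with the wild-type changes that chose the members. Over the 104 members the median change was 0.20 log2 in mutant set 1 and -0.15 in set 2, against 0.12 and -0.05 for all probe sets above the filter. The median of the 2-set means was 0.0003 log2, against 0.02 for all probe sets, and 52 members were below 0 and 52 above. Limma called 0 of 8379 probe sets as lower in irradiated mutant embryos (0.0%) and none of the 104 members. At an unadjusted p under 0.05, 51 of the 8379 and 3 of the members were lower, these 3 being meso18E, OtopLa and CG3906, and 2 members, fig and Pc, were higher. With 2 sets, an exact sign-flip permutation test of a single gene cannot give a p below 0.5.

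A fall of 0.38 log2 or more was seen for 23 members (22.1%) in mutant set 1, against 17.8% of all probe sets, and for 33 (31.7%) in set 2, against 21.8%. In both sets it was seen for 7 members (6.73%), against 1.64%: meso18E, OtopLa, CG3906, Samuel, rictor, dpr4 and Tbcd. Brighter probe sets of dpr4, OtopLa and Samuel that are not members did not fall in both. In mutant sets 1 and 2, 149690_at of dpr4 changed by 1.30 and 0.32 log2. For OtopLa, 144530_at changed by -1.23 and 0.68, and for Samuel, 146221_at by 0.95 and -0.38. A rise of 0.38 log2 or more in both sets was seen for 6 (5.77%), against 3.06%: fig, mst, Pc, CG32447, CG32982 and CG11095. Other probe sets of CG32982 changed by -0.18 and -0.14 (152498_at) and by -0.19 and 0.21 (146070_at) in mutant sets 1 and 2. Counting any size, 17 members (16.3%) were below 0 in both mutant sets, against 14.2%, and 19 (18.3%) were above 0 in both, against 18.9%. The shares past 0.38 log2 in both sets were thus above those of all probe sets in either direction, and further above for falls, while the shares of any size were near them. The mutant intervals were wide, with a median width of 1.67 log2, and for 11 members the interval lay wholly above -0.38. For the other 93 a mutant change as large as the rule asks is inside the interval. Whether the response of the members differs between genotypes was not tested, because the wild-type side of that difference chose them.

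**Figure D3:**
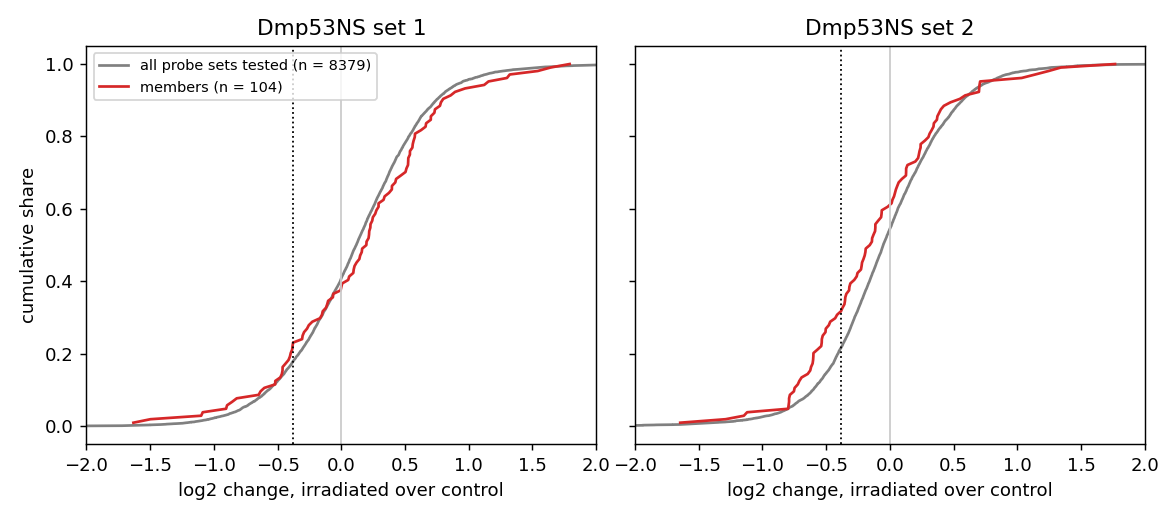
Cumulative share of probe sets (vertical axis) by log2 change, irradiated over control (horizontal axis), in Dmp53NS set 1 (left) and set 2 (right), for the 104 members (red) and all 8379 probe sets tested (grey); the dotted line marks -0.38. The member medians of 0.20 and -0.15 lie beside those of all probe sets, and the largest gap between the curves is to the left of 0 in set 2.

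For 22 member genes the array holds another probe set above the signal filter, 25 in all, that is not itself a member. Any probe set that met the rule is thus missing from the 25, while all probe sets above the filter include the members. The shares below are therefore not of like sets and are a description only. The mean of the 3 wild-type changes was below 0 for 12 of the 25. Their median wild-type change was 0.01 log2, against -0.74 for the member probe sets of the same genes. Of the 25, 4 (16.0%) were below 0 in all 3 wild-type sets, which is the share of all probe sets above the filter (16.0%), and 2 were above 0 in all 3. For rib the second probe set, 151643_at, with a mean signal of 4053, changed by 0.16, -0.16 and 0.17 log2, where the member probe set gave -1.02, -0.57 and -0.96. For neur the second, 142913_at, gave -0.003, 0.07 and -0.07 against -0.94, -0.55 and -0.92. For RAF2 the second, 153654_at, was higher in all 3 sets, by 0.71, 0.19 and 0.75 log2. So was 152498_at of CG32982, by 0.74, 0.43 and 0.87. For nkd, 149028_at gave -1.07 log2 in yw, -0.09 in w1118 set 1 and 0.37 in w1118 set 2. In the same order unc-5 had 0.47, -0.03 and -0.35 for 151656_at, and 0.27, 0.03 and -0.05 for 147245_at.

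The readings came together for a few genes. For pod1 the second probe set, 142730_at, gave -0.37, -0.55 and -0.62 log2, just short of the rule. For schlank, 144584_at gave -0.40, -0.33 and -1.10, and for tinc, 150105_at gave -1.47, -0.55 and -0.27, while the other probe set of tinc, 150103_at, gave -0.14, -0.08 and 0.24.  Probe sets of 1 gene may lie on different transcripts or old gene models, and positions of the probes were not used here. Their part in the disagreement was not tested.

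**Figure D4:**
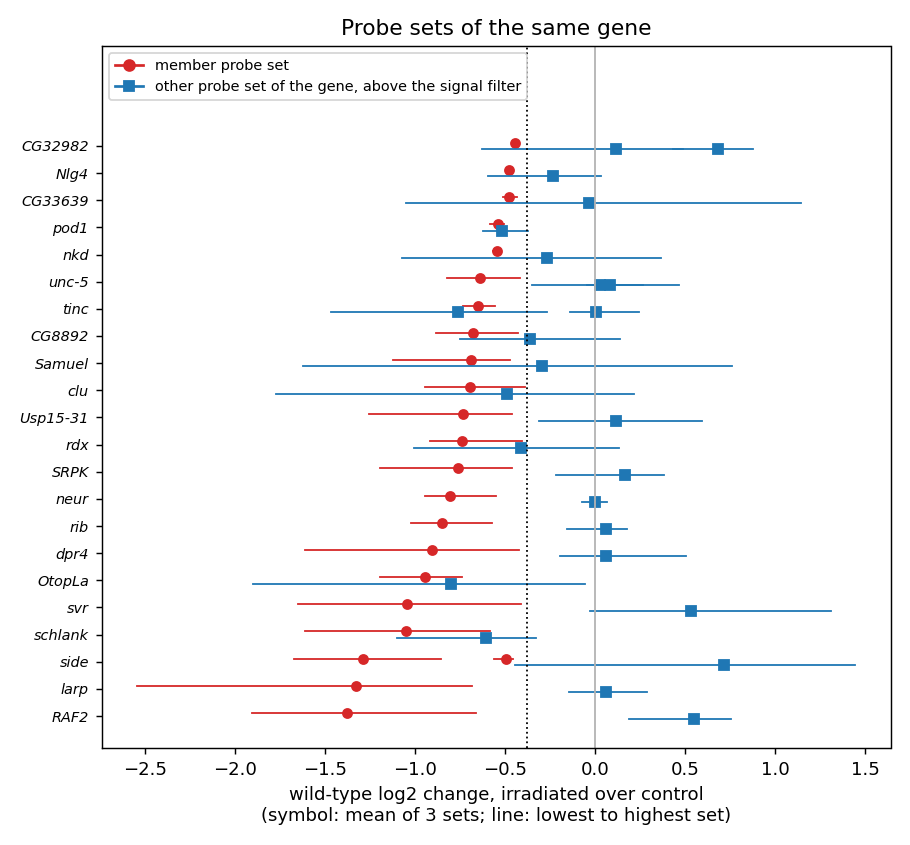
Wild-type log2 change, irradiated over control (horizontal axis), of member probe sets (red circles) and of other probe sets of the same gene above the signal filter (blue squares), for 22 genes (rows); symbols are means of the 3 sets and lines run from the lowest to the highest set. The red symbols lie left of the dotted line at -0.38 by choice. The blue symbols are probe sets that did not meet the rule, and most lie right of the line. Those left of it belong to pod1, tinc (1 of its 2), clu, rdx, OtopLa and schlank.

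By signal, the wild-type values below are those that chose the members and are a description only. Members with a mean signal under 100 (30 probe sets) had a median change of -0.86 log2 and a median range over the 3 sets of 0.65, those between 100 and 250 (44) had -0.81 and 0.74, and those over 250 (30) had -0.66 and 0.36. The median mutant change was -0.04, 0.06 and -0.03 log2 in the same order. The mutant medians, which the rule did not use, were thus near 0 in each range of signal.

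Levels averaged over both treatments are a contrast that the fold rule did not use, but the choice of members bears on it. The signal filter read all 10 arrays, and a fall in each wild-type set needs signal in each wild-type control. The level fit also had the same irradiation term for all strains. Shares of members and of all probe sets are therefore not of like sets and are a description only. Between Dmp53NS and the wild type limma called 4 members as higher in the mutant (3.85%, against 10.9% of all probe sets) and 7 as lower (6.73%, against 9.95%). Polr3A was higher by 2.07 log2 (SE 0.30, limma adjusted p = 0.0013), qkr54B by 1.89 (SE 0.31, limma adjusted p = 0.0027), pod1 by 1.55 and 154110_at by 0.58. Those lower were Sirt2 (-1.50 log2, SE 0.36, limma adjusted p = 0.0145), 145419_at (-1.42), CG11095 (-1.28), CG9121 (-1.13), yellow-e3 (-0.95), Nagk (-0.94) and side 150728_at (-0.88). Without the yw set 2 members were called higher, Polr3A and qkr54B, and 0 lower. Both of these were called in all 13 alternatives run. Without mutant set 1 the counts were 2 and 4, without mutant set 2 they were 3 and 1, and with w1118 and mutant sets alone and day as a block they were 14 and 26, in a fit that called 4432 of all 8379 probe sets.

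Between the wild-type strains 2 members were higher in w1118 than in yw (1.92%, against 4.14%), namely Polr3A (1.73 log2) and CG4408 (1.42). Another 4 were lower (3.85%, against 4.49%): CG8892 (-2.35 log2), Samuel (-1.83), OtopLa (-1.81) and Lcp65Aa (-1.65). Outside yw, OtopLa read at most 61.1 and Samuel at most 59.9, so both passed the signal filter through yw. Brighter probe sets did not repeat 2 of these differences. For CG8892, 142852_at read 404 and 287 in yw, 656 and 723 in w1118 set 1, and 613 and 358 in w1118 set 2. For OtopLa, 144530_at read 489 and 120, 292 and 211, and 209 and 200 in the same order. Strain and hybridization day cannot be told apart here. The second w1118 set decided part of these calls, since without it 3 were called higher and 1 lower. The count of those lower was 9 with no signal filter, 8 with no replicate block, 2 with a pseudocount of 1 and 1 with a stricter filter.

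The lists of stage and tissue markers, drawn up with earlier results of these data known, held 3 members among 187 measured genes. Of all probe sets above the filter, 104 of 8374 were members, and nothing is read from these counts. The 3 were rib on the trachea, salivary gland and epidermis list, neur on the neural list and nkd on the list of segment polarity and Hox genes. Of 12 measured segment polarity and Hox genes, which hold segment identity at this stage, limma called 0 in either genotype, and 1 was lower in the wild type at an unadjusted p under 0.05. Their medians were -0.40, -0.20 and -0.29 log2 in yw and w1118 sets 1 and 2, and -0.02 and -0.47 in mutant sets 1 and 2. Of 13 trachea, salivary gland and epidermis genes limma called 0, 3 were lower in the wild type at an unadjusted p under 0.05, and the list had medians of -0.23, -0.16 and -0.01 in the wild type and 0.16 and -0.22 in the mutant. The 27 proneural, neuroblast and Notch target genes had 0 calls by limma, 2 lower in the wild type at an unadjusted p under 0.05, and medians of -0.07, -0.18 and 0.05 in the wild type, and 0.32 and -0.63 in the mutant. The wild-type counts and medians of these 3 lists include the members rib, neur and nkd, which were chosen by their wild-type falls. The tracheal list also names kni and vvl, which met the rule. On these 3 lists 0 genes passed an unadjusted p of 0.05 in the mutant. For scale, the medians of all probe sets above the filter were 0.12 in mutant set 1 and -0.05 in set 2. Of 8 endoderm and yolk genes limma called 0, 1 was lower in the wild type and 1 passed in the mutant at an unadjusted p under 0.05, and the medians were -0.83, -0.27 and -0.05 in the wild type and 0.17 and -0.13 in the mutant. Of 16 amnioserosa and dorsal ectoderm genes limma called 0, with 3 lower in the wild type and 0 in the mutant at an unadjusted p under 0.05. Their medians were -0.16, -0.05 and -0.21 in the wild type and 0.28 and -0.31 in the mutant. Of 10 mesoderm genes limma called 0, with 0 at an unadjusted p under 0.05, and medians of -0.15, -0.03 and -0.22 in the wild type and 0.27 and -0.24 in the mutant. These 3 lists, with the segment polarity and the tracheal ones, are the 5 whose medians lay below 0 in every wild-type set. Of 10 hemocyte genes, markers of blood cells, limma called 0, with 1 lower in the wild type at an unadjusted p under 0.05, and their medians were -0.39, -0.13 and 0.02 log2 in the wild type. Of 18 maternal transcripts limma called 0, with 0 lower in the wild type at an unadjusted p under 0.05 and medians of -0.02, 0.32 and 0.08 in the wild type and -0.60 and 0.39 in the mutant. Their part in the values of the members was not tested.

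The RNA quality values stand beside the sets in the same way. The irradiated array of w1118 set 2, with the eIF-4a ratio of 12.2 against 2.92 on its control, belongs to the set where 42 members had their deepest change. In yw, where 50 had theirs, the ratios were 1.56 and 2.27, and in w1118 set 1 they were 2.13 and 1.95. In mutant set 2 the control had the higher ratio, 5.92 against 3.13 on the irradiated array, the reverse of w1118 set 2, and the actin ratio was 3.52 against 2.31. In mutant set 1 the eIF-4a ratios were 2.11 and 2.14. Without w1118 set 2 the rule takes 371 probe sets, without yw 283 and without w1118 set 1 617, so that each set decides the membership. The part of RNA quality in the values was not tested.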

How the data were processed

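The deposited table holds 14010 probe sets on 10 arrays. Its values are signal intensity on a linear scale, made by the authors with MAS5, per the submitters' processing notes, whose version is not given in the sources used here. Per the labels' protocols, both collections of a set were handled alike apart from the radiation. The 44 Affymetrix controls were left out. Gene symbols are those of GEO's annotation of the array (12442 probe sets have 1 symbol, 327 with several, 1197 with none), and 12393 matched the Release 6 gene table, which changed 0.

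Values were analysed as log2(signal + 14.5), the 20th percentile of all values, without further scaling. Only probe sets whose mean signal exceeded 53.36, the 40th percentile, entered the fits. Limma 3.58.1 in R 4.3.3 (lmFit, eBayes with a trend) fitted the irradiation effect of each genotype to all 10 arrays with a fixed term for every set (3 residual and 18.1 prior degrees of freedom), since the series describes paired sets. Strain levels were taken from a model of strain and irradiation in which the set was random (its consensus correlation was 0.19). With only 5 sets, those level tests count arrays of a set as nearly independent, so their p-values may be too small. The deviations of the control and irradiated array of a set correlated at 0.60 in w1118 and 0.43 in the mutant, which also holds the hybridization day. Nothing in the labels says that the biological replicates came from separate parents. Benjamini-Hochberg adjusted p-values are over all probe sets fitted, two-sided, at 0.05. Both fits were tested on simulated data.

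Among members with 1 gene symbol, those named with values are the 10 with the lowest wild-type mean, the 10 with the highest signal, those on a marker list or called in a fit, the 5 lowest and 5 highest in the mutant, and those nearest the threshold. Other members named, the 9 plotted and the functional groups were picked by hand after values were seen. Members and lists were chosen with earlier results of these data known. Alternatives covered pseudocount, scaling, filter, variance trend, threshold, block and each set left out. No sequences are shown, since no sequence table was used here.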

Additional observations from a re-analysis of the deposited data

Results flagged for a closer look

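Of the 42 members named by the rule, 12 are listed because both mutant sets went up where all 3 wild-type sets went down by the choice of members. The difference between genotypes was not tested. The mean mutant changes were 1.12 log2 for fig, 0.97 for mst, 0.96 for Pc, 0.80 for CG32447, 0.60 for CG8892, 0.52 for larp, 0.46 for CG11095, 0.38 for Lcp65Aa, 0.22 for l(1)G0320, 0.21 for Sirt2, 0.0915 for side (150728_at) and 0.0676 for neur. The other 7 of the 19 members with this pattern are CG32982 (0.62), Chpf (0.47), pon (0.45), the unnamed 152601_at (0.44), TBC1D16 (0.39), PGAP5 (0.21) and Eno (0.14). Another probe set of CG32982, 152498_at, went the other way, with 0.74, 0.43 and 0.87 log2 in the wild type and -0.18 and -0.14 in the mutant. Over all members, 18.3% were above 0 in both mutant sets, against 18.9% of all probe sets. Groups of 2 or 3 arrays were too small to test single arrays for standing apart.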

How the results depend on the processing

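The number of members, 104, was 59 with a pseudocount of 46.7, 187 with no signal filter, 56 with a stricter filter, 318 at a threshold of -0.25, 40 at -0.5 and 4 at -0.75, and 283 to 617 with 1 wild-type set left out. A pseudocount of 1 gave 143 and quantile normalization 133, where 98 of the 104 were retained. The median mutant change stayed between -0.15 and 0.20 log2 under the 6 alternatives run for it (other pseudocounts, quantile normalization, a threshold of -0.5, each mutant set left out). The count of probe sets called in irradiated mutant embryos was 0, and 0 to 3 with 1 set left out (3 without yw, all lower, none of them a member), 1 with mutant arrays alone, 0 with no replicate block and 0 with a random replicate block. For the 42 members named by the rule, the lowest adjusted p of the mutant change over all alternatives was 0.90. Mutant against wild-type levels gave 1751 calls, 494 to 2146 with 1 set left out, and 4432 over the shared days with day as a block, where the fitted correlation within a set was -0.52. The w1118 against yw levels gave 723 calls, 535 to 818 with 1 set left out, 2347 with no filter, 378 with a stricter one and 1326 with no replicate block. Without the block, members lower in w1118 than in yw were 8 in place of 4. Dim signals and 2 mutant sets limit what can be seen.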

Other observations

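The 91 member genes with 1 symbol were spread over the genome in the Release 6 gene table, with 17 on arm 2L, 12 on 2R, 14 on 3L, 27 on 3R and 21 on X. No 2 of them were direct neighbours, and 5 pairs lay within 10 genes of each other: CG9121 and senju, unc-5 and SRPK, CG14075 and nkd, Nlg4 and Sirt2, and pod1 and Atx-1.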
